A study of Mus musculus with 20 samples.

Results

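The 38 genes described here encode parts of the lysosome, and they were followed in whole epididymal fat of mice switched from chow to a high-fat diet. They were taken as a named list of genes, drawn up with earlier results of these data known. It held 10 cathepsins, 13 other hydrolases, 3 lumen proteins that are not hydrolases and 5 membrane proteins. The rest were 6 subunits of the vacuolar ATPase (V-ATPase) and Tfeb, a regulator. The deposited table holds 39179 genes, of which 15254 had enough reads to be tested. All 38 lysosome genes passed that filter. Atp6v0d2 was the thinnest, with 2 reads in its lowest library.

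All animals were male C57BL6/J mice. A chow group marked day 0 was compared with groups on high-fat diet for 2, 4, 6 or 14 days, with 4 libraries in each of the 5 groups and 20 altogether. No genotype other than the strain and no age is given in the labels, and no chow group was kept to the later days, so time and diet cannot be told apart. The design text calls the libraries biological replicates without saying whether each was 1 animal.

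Lysosomes are acidic organelles that break down proteins, lipids, glycans and nucleic acids brought in by endocytosis, phagocytosis and autophagy. The V-ATPase pumps protons into the lumen, where cathepsins and other acid hydrolases work, while membrane proteins such as Lamp1 and Lamp2 line the wall and channels and transporters release the products. The transcription factor TFEB and its relatives MITF, TFE3 and TFEC bind the E-box CACGTG in promoters of many lysosome genes. In fat, both adipocytes and the macrophages among them use lysosomes, and macrophages are known for high levels of several cathepsins.

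RefSeq promoters of build GRCm38.p6, from 250 bases before to 50 bases after a gene's start, were at hand for 32 of the 38 genes. CACGTG, which reads the same on both strands, was found in the promoters of 12 of those 32 genes (37.5%), against 8.09% of all 27025 genes with a promoter entry. The longer TCACGTGA, also the same on both strands and containing CACGTG, was found in 6 (18.8%, against 1.12%). GTCACGTG, which also contains CACGTG, was found on either strand in 8 (25%, against 2.55%). The stretches below show matches, in capitals, for the membrane protein Lamp1, whose promoter holds 4, for the calcium channel Mcoln1, and for Ctsd, Atp6v0d1, Atp6v1a and Gaa, whose transcripts changed on day 4. Each is written 5′ to 3′ on the gene's strand. All matches in the window are shown for these genes except 1 of the 2 of Ctsd, which lies farther upstream, at position -245 from the start.
Lamp1 (chr8:13159080-13159163, plus strand): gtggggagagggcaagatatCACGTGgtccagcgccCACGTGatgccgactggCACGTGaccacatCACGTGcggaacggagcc
Mcoln1 (chr8:3500428-3500491, plus strand): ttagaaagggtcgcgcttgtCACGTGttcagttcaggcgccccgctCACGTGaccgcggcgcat
Ctsd (chr7:142387908-142387945, minus strand): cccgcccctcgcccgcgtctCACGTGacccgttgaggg
Atp6v0d1 (chr8:105566053-105566087, minus strand): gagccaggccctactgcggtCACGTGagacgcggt
Atp6v1a (chr16:44139373-44139410, minus strand): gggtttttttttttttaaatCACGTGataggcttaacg
Gaa (chr11:119267803-119267840, plus strand): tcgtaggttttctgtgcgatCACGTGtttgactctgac

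The match is a description of these letters and not a mapped binding site. The remaining genes with CACGTG were Ctsa, Ctsf, Ctsl, Lgmn, Gla and Glb1. Of the 12 genes with the motif, 3 rose (Ctsd, Atp6v0d1 and Atp6v1a) and 2 fell (Ctsf and Gaa) on day 4, by the test described below and against 35.3% of all tested genes that changed that day in either direction. Of the 20 genes with a promoter entry and no CACGTG, 2 rose (Ctsk and Smpd1) and 4 fell (Ppt1, Neu1, Lamp2 and Cd63). The promoters of Lamp1 and Mcoln1, with 4 and 2 matches, belonged to genes that did not pass the test on day 4.

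Library totals ran from 1916829 to 38832429 counted reads, the lowest in high-fat day 2 replicate 1. Counts were scaled by the trimmed mean of M-values method (TMM) and are given as counts-per-million (CPM). Differences between groups are log2 changes ± standard error from edgeR's quasi-likelihood test over all 20 libraries, with Benjamini-Hochberg adjustment over the 15254 genes, and a gene is said to have changed where the adjusted p was under 0.05. Chow replicate 4 stood apart by Cuzd1, 1 of 7 listed epididymal duct markers, at 80.1 CPM, while no other library exceeded 3.78 CPM. The rest of that list did not rise with it: all 7 together summed to 80.48 CPM there, and Lcn5, Defb21 and Spint4 had no reads in chow. Whether duct tissue was carried over was not tested. Counts of changed genes are also given without chow replicate 4 and without the shallow day 2 library. Counts from fits that left out libraries or changed the scaling are given without the share of all tested genes in the same fit. They are thus not set against a background. The adipocyte markers, 12 of 12 detected, summed to 32560 to 75030 CPM across libraries of this whole fat tissue. The 18 macrophage markers, all detected in every group, summed to 1793 to 2165 CPM in chow and, in order of time on the diet, to 1195 to 1789, 1328 to 2426, 1466 to 2198 and 1419 to 2368 CPM. On day 4, 9 of 9 tested mesothelial markers were lower and 6 of 8 endothelial markers higher than in chow. The mesothelial difference was not particular to day 4: 8 of the 9 were lower on day 2, 2 on day 6 and 0 on day 14. Their summed CPM was 389.7 to 508.2 in chow and reached at most 186, 234.4, 308 and 371 on days 2, 4, 6 and 14. Every high-fat library thus lay below every chow library. In whole tissue, fewer cells of a type and less RNA per cell cannot be told apart.

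Lysosome transcripts were abundant in this fat. The summed TMM-scaled CPM of the 38 genes, as a percentage, was 0.977% ± 0.0772 in chow (SD, n = 4). In order of time on the diet, this sum was 0.912% ± 0.0241, 1.10% ± 0.0707, 1.12% ± 0.12 and 1.03% ± 0.0843. It is not a share of the raw counts, as TMM changes the library sizes the counts are divided by. Against chow, the median log2 change of all tested genes was -0.032, -0.02, -0.008 and -0.007 under TMM. With library size only it was -0.14, -0.135, -0.143 and -0.101. The sum under library size only is not given, so the higher values on days 4, 6 and 14 are not read as a rise. Their median level over all libraries was 121 CPM, against 18.3 CPM for all tested genes. Per length of exon (RPKM, with GENCODE M21 exon lengths), the aspartic protease Ctsd was highest with a mean of 696, followed by the saposin precursor Psap with 606, the cysteine protease Ctsb with 299 and Lamp1 with 291. The lowest were Atp6v0d2 with 1.33 RPKM, the alpha-galactosidase Gla with 2.31 and Tfeb with 3.12. Between the lowest and the highest of the 20 libraries, the members other than Atp6v0d2 spanned from 1.24-fold (Scarb2) to 2.77-fold (Ctsf), and Atp6v0d2 spanned 17.5-fold.

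**Figure D1:**
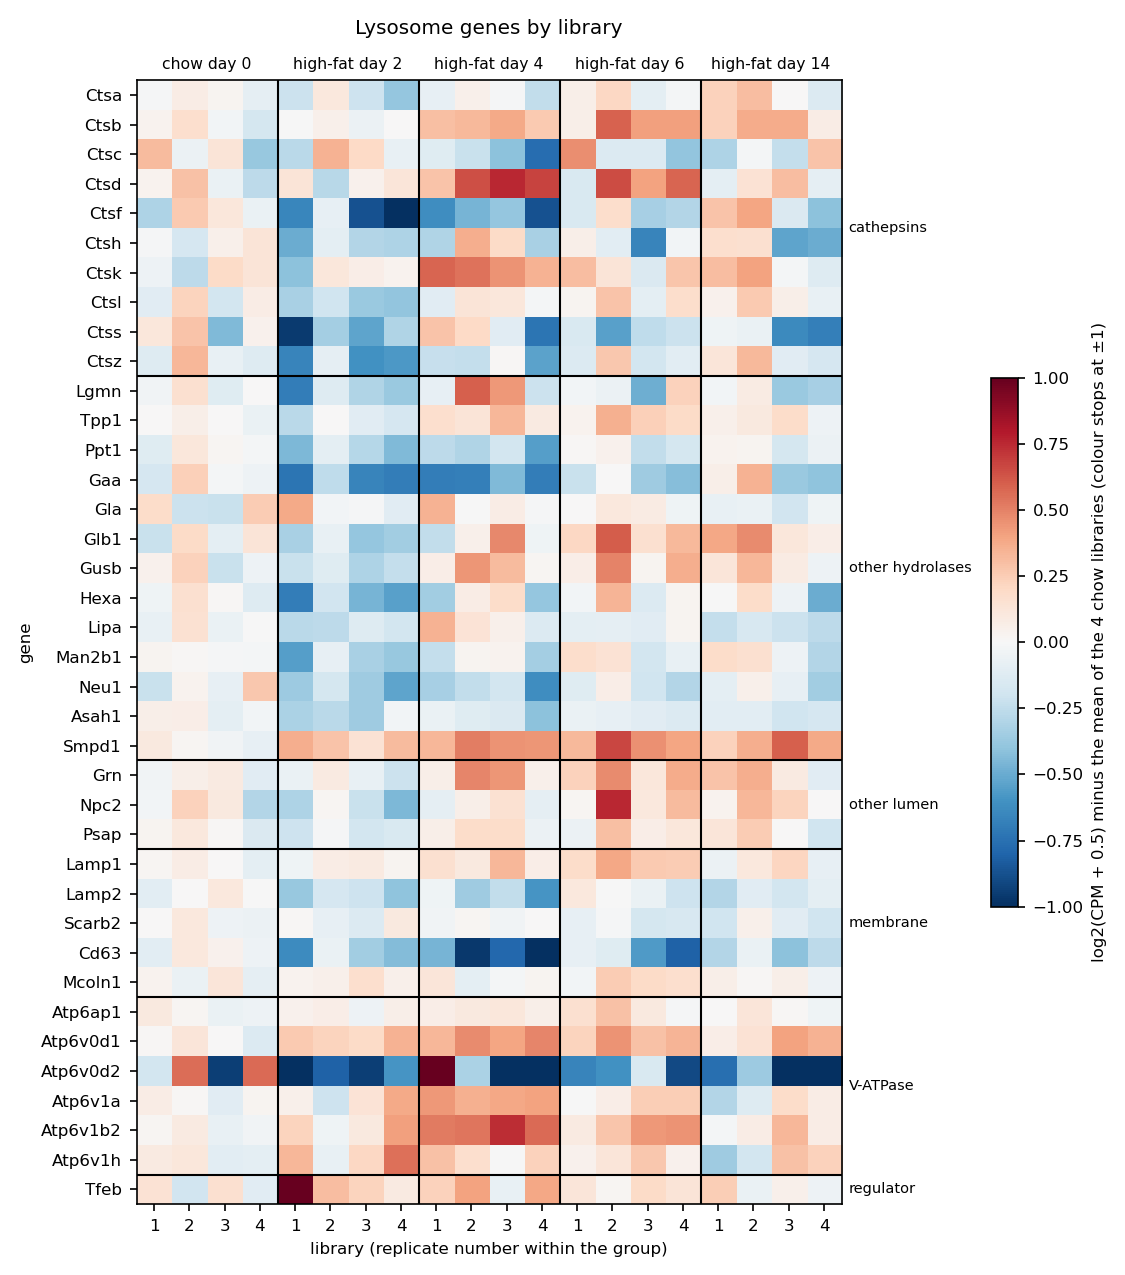
Level of each lysosome gene (rows, grouped by role) in each of the 20 libraries (columns, by group and replicate), as log2(CPM + 0.5) minus the mean of the 4 chow libraries; the colour stops at ±1. The day 2 columns are mostly blue among cathepsins and other hydrolases, the V-ATPase rows other than Atp6v0d2 are mostly red on day 4, and Cd63 and Gaa are blue on day 4.

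The genes had their extremes at different times. The group mean was lowest on day 2 for 20 of the 38 genes (52.6%, against 20.3% of all tested genes) and highest on day 6 for 14 (36.8%, against 7.62%). Without chow replicate 4 and day 2 replicate 1 these counts were 19 and 14. Most of these extremes did not pass a test between groups, as the next paragraphs show. A test for any difference among the 5 groups called 15 of the 38 genes (39.5%), against 19.6% of all tested genes; the lysosome genes were also read more deeply than the median gene. That count rested on single libraries, ranging from 3 without day 4 replicate 4 to 16, and was 1 when both doubted libraries were left out. The share of all tested genes in those fits is not given.

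On day 2, only Gaa, the acid alpha-glucosidase that degrades glycogen, passed the test. Gaa was measured at 126, 167, 139 and 137 CPM in chow and at 85.3, 119, 89.1 and 87.2 CPM on day 2. Every day 2 library lay below every chow library, although day 2 replicate 2 came close. The log2 change was -0.57 ± 0.15, with an adjusted p of 0.0432 by edgeR's quasi-likelihood test. This 1 gene of 38 stood against a background of 4.39% of all tested genes (1.96% downward), and it did not pass without the doubted libraries (adjusted p = 0.244). Of the 8 fits that each left out 1 library of these groups, 2 kept it. Counts of members past the threshold on day 2 ran from 0 to 8 over those fits, the 8 without day 2 replicate 2, with no share of all tested genes given.

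The other changes on day 2 leaned downward without passing the test. The log2 change was negative for 27 of 38 genes, with a median of -0.19 against -0.03 for all tested genes. Negative values were found for 9 of 10 cathepsins and 11 of 13 other hydrolases, but for 1 of 6 V-ATPase subunits, Atp6v0d2. Scaled by library size only, which lowered the median of all genes to -0.14, 33 of 38 were negative and the V-ATPase split into 3 positive and 3 negative. Groups did not overlap for 7 genes that were lower on day 2 (background 7.26%) and 2 that were higher (background 5.47%). The 7 were Gaa, the cathepsin Ctsl, the asparaginyl protease Lgmn, Hexa (a beta-hexosaminidase subunit), the lipase Lipa, the mannosidase Man2b1 and Lamp2, and the 2 were Smpd1 and Atp6v0d1. The summed macrophage markers also lay lower in every day 2 library than in every chow library, by a margin of 1789 against 1793 CPM at the nearest. Their part in the lower lysosome values was not tested.

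On day 4, 13 of the 38 genes changed (34.2%), 7 upward and 6 downward, against a background of 35.3% of all tested genes, 18% upward and 17.3% downward. As a share the lysosome genes thus changed about as often as any gene that day, in both directions. The classes differed in which way their changed members went, though no test compared the classes. V-ATPase subunits that changed rose, membrane proteins that changed fell, and cathepsins and other hydrolases went both ways. Groups did not overlap for 7 genes that were higher (background 15.2%) and 4 that were lower (background 15%). Without both doubted libraries 8 genes changed, 5 upward and 3 downward, and without day 4 replicate 4 the count was also 8, with 6 upward and 2 downward. With library size only as the scaling, which moved the median of all genes from -0.02 to -0.14, 4 rose and 7 fell. The mesothelial and endothelial marker lists also differed from chow that day, as given above, the mesothelial one on day 2 already. Day 4 replicate 1 stood apart from the other 3 libraries. Its adipocyte markers summed to 56500 CPM, inside the chow range of 38060 to 65890, while replicates 2 to 4 were at 32560, 36710 and 33480 CPM, below every chow library. Its endothelial markers summed to 1056 CPM, against 1659 to 2012 in the other 3 and 839.5 to 1105 in chow. The proliferation marker Mki67, named after its values were seen, was at 21.4 CPM in replicate 1 and at 208, 175 and 175 CPM in replicates 2 to 4, against 4.65 to 15.9 in chow. High values were not confined to day 4, as day 6 replicate 4 had Mki67 at 123.5 CPM. Its endothelial markers summed to 1823 CPM and its adipocyte markers to 42830 CPM, the latter inside the chow range. Without day 4 replicate 1, 14 lysosome genes changed, 7 upward and 7 downward. The share of all tested genes is not given for this fit, nor for the other fits with libraries left out or another scaling. The part of these cell type markers in the lysosome values was not tested.

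**Figure D2:**
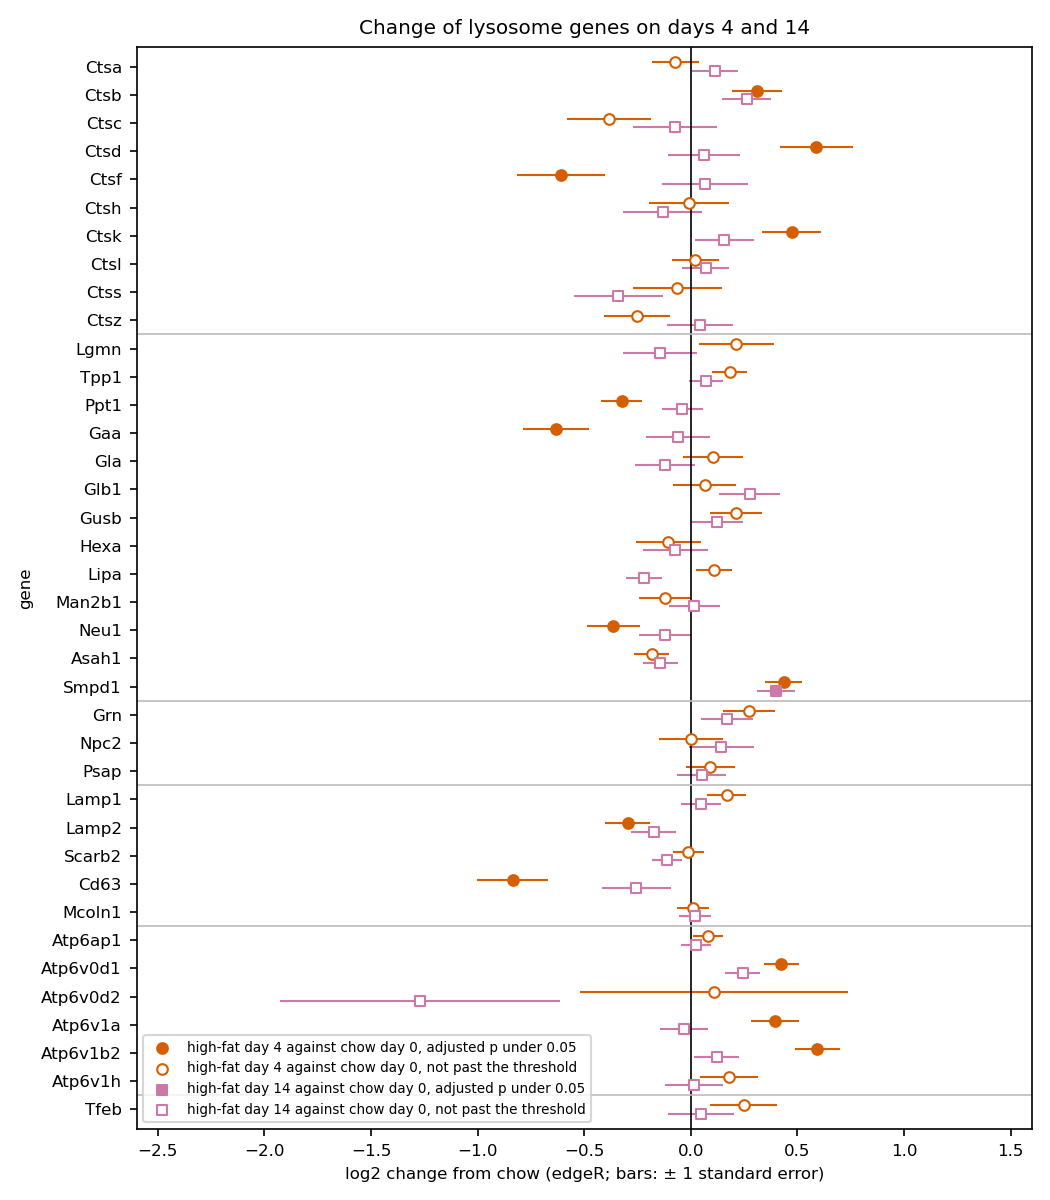
Log2 change (x axis) of each lysosome gene (y axis, grouped by role) on day 4 (circles) and day 14 (squares) against the same chow libraries, with bars of ± 1 standard error; filled symbols passed an adjusted p of 0.05. On day 4, 7 filled circles lie right of 0 and 6 left of it; on day 14, Smpd1 is the only filled square.

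Among the 6 V-ATPase subunits, Atp6v1b2, Atp6v1a and Atp6v0d1 rose on day 4. The log2 change was positive for all 6 under TMM, and for 4 of 6 under library size only. Atp6v1b2 encodes the B subunit of the cytosolic V1 sector, which with the A subunit hydrolyses ATP. It was measured at 132, 139, 123 and 127 CPM in chow and at 186, 189, 217 and 193 CPM on day 4. All 4 day 4 libraries were above all chow libraries. The change on the log2 scale was 0.59 ± 0.10 (adjusted p = 0.0012, edgeR's quasi-likelihood test), and it passed in each of the 8 fits that left out 1 library. The mean was 147 ± 19.9 CPM on day 2 and 162 ± 18.5 CPM on day 6 (SD, n = 4), between chow and day 4.

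Atp6v0d1 encodes the d subunit that joins the membrane sector V0 to the central stalk. Its libraries read 104, 112, 104 and 94.1 CPM in chow and 130, 144, 136 and 145 CPM on day 4, again with no overlap. Its log2 change was 0.42 ± 0.08 (adjusted p = 0.00167, edgeR). Atp6v1a encodes the catalytic A subunit. It read 120, 116, 106 and 117 CPM in chow and 155, 146, 150 and 152 CPM on day 4, with SDs of 6.18 and 3.49 CPM and no overlap. This was a log2 change of 0.39 ± 0.11 (adjusted p = 0.0119, edgeR). It was lost when libraries were scaled by size only (adjusted p = 0.0523), and no single library decided either call.

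The other 3 subunits did not pass on day 4. Atp6v1h, the regulatory H subunit, changed by 0.18 ± 0.14 (adjusted p = 0.321, edgeR). The accessory protein Atp6ap1 changed by 0.08 ± 0.07 (adjusted p = 0.387, edgeR), with 173 ± 9.11 CPM in chow and 183 ± 3.15 CPM on day 4. Atp6v0d2, an isoform of the d subunit known from osteoclasts and macrophages, had the widest spread of the 38 genes. It read 4.19, 7.32, 2.28 and 7.39 CPM in chow and 15.5, 3.78, 0.888 and 1.11 CPM on day 4, so a single library held the highest value of all 20 and set the group mean. The log2 change of 0.11 ± 0.63 became -1.52 without that library, high-fat day 4 replicate 1 (adjusted p = 0.0409, edgeR). In this library 2 markers of lipid-laden macrophages, Gpnmb and Mmp12, were also at their highest, 102 and 83.3 CPM, against 5.1 to 11.1 and 10.7 to 18.3 CPM in the other 3 libraries of day 4.

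Over all 20 libraries, Atp6v0d2 varied with 4 of the 8 markers of lipid-laden macrophages. On log2(CPM + 0.5), Pearson's r was 0.859 with the protease Mmp12, 0.842 with Gpnmb, 0.773 with Spp1 and 0.72 with Itgax, with Spearman's rho of 0.856, 0.741, 0.75 and 0.678. In the same order, permutation p-values for r were 1e-05, the smallest that 100000 permutations can give, 2e-05, 0.00013 and 0.00031, and those for rho 1e-05, 0.00032, 0.00026 and 0.00133. Adjusted over the 8 relations they were 8e-05, 8e-05, 0.000347 and 0.00062 for r and 8e-05, 0.000853, 0.000853 and 0.00266 for rho. Without day 4 replicate 1 and chow replicate 4, the values farthest from the median, r was 0.766, 0.721, 0.671 and 0.611. The other 4 markers did not pass for both: Trem2 gave r = 0.576 and Cd9 0.232, and Lpl and Fabp5, which adipocytes also express, gave -0.26 and -0.332. Within groups, as deviations from the group means, r was 0.837 with Mmp12 and 0.895 with Gpnmb.

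Among the 10 cathepsins, Ctsd, Ctsb and Ctsk rose on day 4 and Ctsf fell. Ctsd, the most abundant protease of the list per length, was measured at 1419, 1692, 1323 and 1154 CPM in chow and 1690, 2166, 2334 and 2215 CPM on day 4. Replicate 1 of day 4 lay just under chow replicate 2, and the other 3 were higher than all chow libraries. The log2 change was 0.59 ± 0.17 (adjusted p = 0.0135, edgeR). It fell just short without chow replicate 4 (adjusted p = 0.0506) and passed in the other 7 fits that left out 1 library.

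Ctsb read 1612, 1767, 1544 and 1395 CPM in chow and 1937, 1969, 2044 and 1887 CPM on day 4, with no overlap. The log2 change of 0.31 ± 0.12 was close to the threshold (adjusted p = 0.0436, edgeR). Of the 8 fits that left out 1 library, 1 kept it, and it was lost with size factors from DESeq2 in the same test. Ctsk, a collagen-cleaving cathepsin, was far lower, at 16.8, 14.4, 19.97 and 19.04 CPM in chow and 26.3, 25.6, 23.97 and 22.2 CPM on day 4. The groups did not overlap, and the log2 change was 0.47 ± 0.14 (adjusted p = 0.0145, edgeR). It was lost without chow replicate 2 (adjusted p = 0.0531) and with library size only (adjusted p = 0.0935).

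Ctsf, another cysteine protease, went the other way. It read 42.1, 62.5, 56.3 and 49.9 CPM in chow and 33.7, 37.6, 39.7 and 28.2 CPM on day 4, all lower than chow, and the log2 change was -0.61 ± 0.21 (adjusted p = 0.0297, edgeR). It passed in 4 of the 8 fits that left out 1 library. The remaining 6 cathepsins did not pass. Their log2 changes on day 4 ran from -0.38 ± 0.20 for the dipeptidyl peptidase Ctsc (194 ± 35.9 CPM, against 253 ± 50.5 in chow) to 0.02 ± 0.11 for Ctsl, with Ctsz at -0.25, Ctsa at -0.07, Ctss at -0.06 and Ctsh at -0.01.

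**Figure D3:**
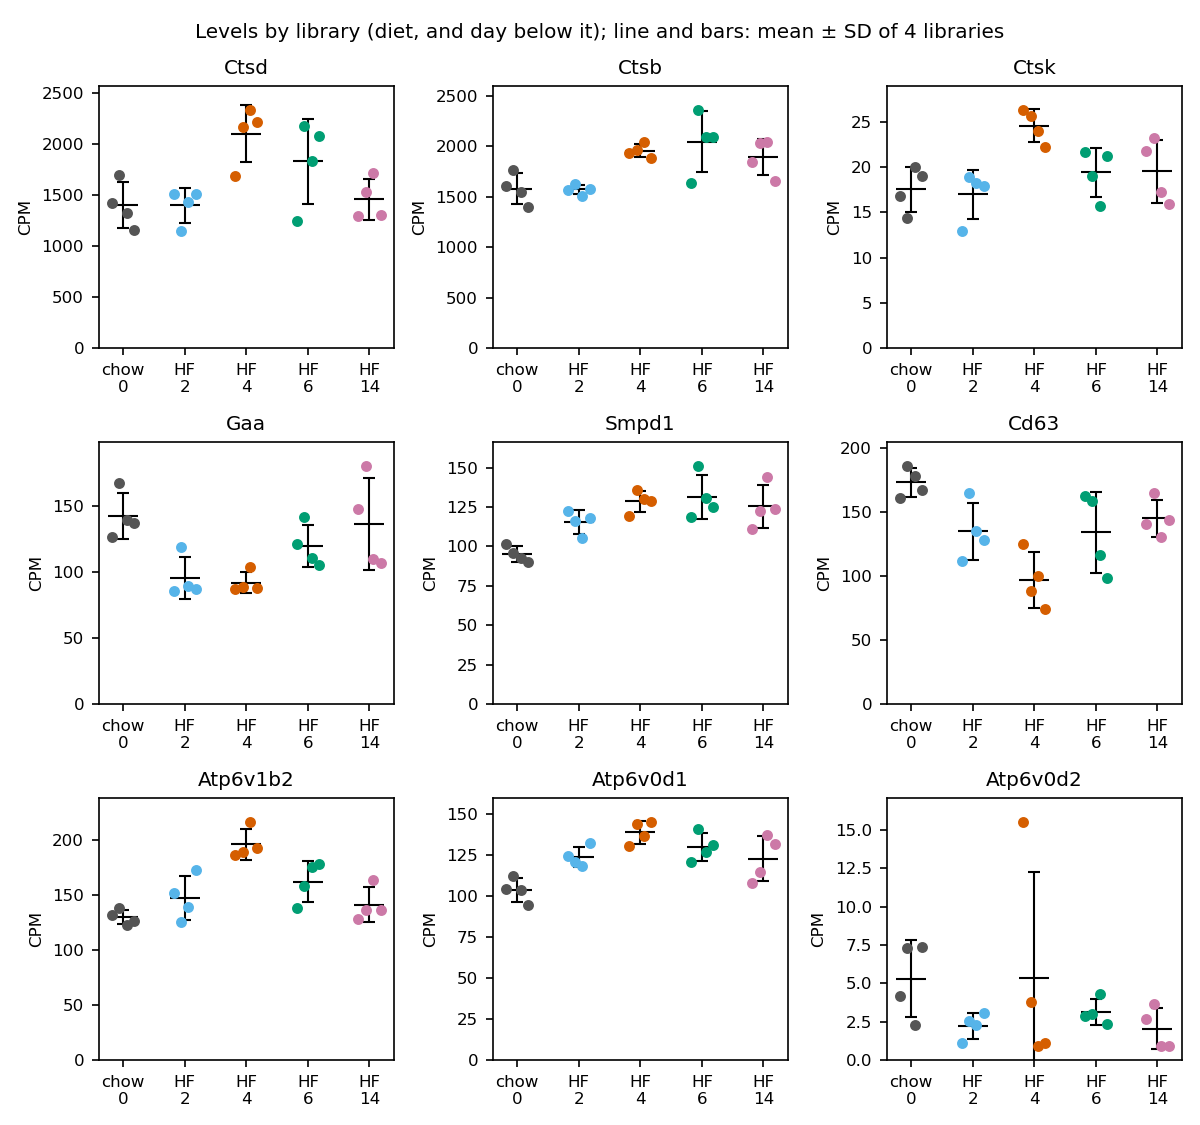
CPM in every library (points), with the mean and SD of the 4 libraries (line and bars), for 9 lysosome genes in chow and on high-fat days 2, 4, 6 and 14. Atp6v1b2, Atp6v0d1 and Ctsk peak on day 4, Smpd1 lies above chow on every high-fat day, Gaa and Cd63 are lowest on day 4, and Atp6v0d2 has 1 high library on day 4, whose lower SD bar is cut at 0.

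Of the 13 other hydrolases, Smpd1 rose on day 4, and Gaa, Neu1 and Ppt1 fell. Smpd1 encodes acid sphingomyelinase, which turns sphingomyelin into ceramide. It was at 102, 96.0, 92.5 and 89.9 CPM in chow and 120, 136, 130 and 129 CPM on day 4. Every day 4 library was above chow, and the log2 change was 0.43 ± 0.09 (adjusted p = 0.00195, edgeR). Its level was also higher than chow without overlap on day 2, at 123, 116, 105 and 118 CPM, on day 6, at 119, 151, 131 and 125 CPM, and on day 14, at 111, 122, 144 and 124 CPM.

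Gaa was low on day 4 as on day 2. Its libraries read 87.2, 88.1, 104 and 87.6 CPM on day 4, none of them reaching the chow range given above, and the log2 change was -0.63 ± 0.15 (adjusted p = 0.00508, edgeR). Ppt1, a palmitoyl-protein thioesterase, read 78.2, 92.1, 86.2 and 83.7 CPM in chow and 70.6, 68.7, 74.8 and 57.9 CPM on day 4. The groups did not overlap, and the log2 change was -0.33 ± 0.10 (adjusted p = 0.0155, edgeR), lost without day 4 replicate 4 (adjusted p = 0.0636). Neu1, the lysosomal sialidase, overlapped by 1 library, with 33.4, 40.0, 37.0 and 47.1 CPM in chow and 31.0, 32.8, 34.4 and 25.2 CPM on day 4. Its log2 change was -0.36 ± 0.12 (adjusted p = 0.0287, edgeR), and 5 of the 8 fits that left out 1 library kept it.

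The 9 other hydrolases without a call on day 4 had log2 changes from -0.18 ± 0.08 for the ceramidase Asah1 to 0.21 ± 0.18 for Lgmn. Tpp1, a tripeptidyl peptidase, lay above chow without overlap, with 137 ± 4.89 CPM in chow and 156 ± 11.96 CPM on day 4, but missed the threshold (adjusted p = 0.0873, edgeR). Gusb, the beta-glucuronidase, changed by 0.21, the lipase Lipa by 0.11, Gla by 0.10 and the beta-galactosidase Glb1 by 0.06. Hexa changed by -0.11 and Man2b1 by -0.12. None of the 3 lumen proteins that are not hydrolases passed. The granulin precursor Grn was at 256 ± 15.8 CPM in chow and 309 ± 50.7 CPM on day 4 (log2 change 0.27 ± 0.12, adjusted p = 0.0897, edgeR). The cholesterol-binding protein Npc2 changed by 0.00 ± 0.15 and Psap by 0.09 ± 0.12 on the log2 scale.

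Cd63 showed the largest fall on day 4 among the 38 genes. It encodes a tetraspanin of late endosomes, lysosomes and exosomes. Cd63 read 161, 186, 178 and 167 CPM in chow and 125, 88.3, 99.9 and 73.9 CPM on day 4. All day 4 libraries were below all chow libraries. Its log2 change was -0.84 ± 0.17 (adjusted p = 0.00177, edgeR), and it passed in all 8 fits that left out 1 library. Reads shared with its pseudogene Cd63-ps, which had 557 reads over all libraries, cannot be told apart from those of Cd63.

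Lamp2, a structural glycoprotein that also serves chaperone-mediated autophagy, fell as well on day 4. It read 307, 332, 356 and 330 CPM in chow and 321, 259, 279 and 219 CPM on day 4, where replicate 1 lay inside the chow range. This gave a log2 change of -0.30 ± 0.10 (adjusted p = 0.0351, edgeR), and 2 of the 8 fits that left out 1 library kept it. Lamp1, its close relative, changed by 0.17 ± 0.09 (adjusted p = 0.164, edgeR), with 724 ± 36.7 CPM in chow and 813 ± 68.6 CPM on day 4. Scarb2, the receptor that carries glucocerebrosidase to lysosomes, changed by -0.01 ± 0.07 and Mcoln1 by 0.01 ± 0.08. Both were among the steadiest genes of the list, with a coefficient of variation over the 20 libraries of 6.32% and 6.91%.

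Tfeb itself did not pass on any day. It was at 17.2, 13.5, 17.3 and 14.2 CPM in chow and at 18.2, 20.6, 14.7 and 20.3 CPM on day 4, with overlapping groups and a log2 change of 0.25 ± 0.16 (adjusted p = 0.227, edgeR). The highest value, 32.4 CPM, came from the shallow day 2 replicate 1, where it rested on 60 reads. The other day 2 libraries were at 19.3, 18.1 and 16.5 CPM.

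Fewer changes were found on days 6 and 14 against the same chow libraries. On day 6, 2 of 38 genes passed, both upward, against a background of 3.45% (1.99% upward). Smpd1 changed by 0.47 ± 0.09 (adjusted p = 0.0244, edgeR) and Atp6v0d1, at 121, 141, 127 and 131 CPM without overlap with chow, by 0.33 ± 0.08 (adjusted p = 0.0431, edgeR). Neither passed without the doubted libraries (adjusted p of 0.116 and 0.173). Lamp1 and Grn were also higher than chow in all 4 libraries on day 6, at 872 ± 52.4 and 316 ± 34.1 CPM, and missed the threshold (adjusted p of 0.0928 and 0.137, edgeR). Non-overlapping groups with higher values on day 6 were counted for 4 of the 38 genes, against 6.2% of all tested genes, and with lower values for none. On day 14, Smpd1 was the 1 gene of 38 that passed (background 1.18%, 0.878% upward), with a log2 change of 0.40 ± 0.09 (adjusted p = 0.0333, edgeR), and it did not pass without the doubted libraries (adjusted p = 0.137). On day 14, groups did not overlap for Smpd1, which was higher (1 gene, background 5.28%), and for Lipa and Asah1, which were lower (2 genes, background 4.65%). Smpd1 thus passed on days 4, 6 and 14, in 3 comparisons that share their chow libraries, and its value on day 2 was 0.28 ± 0.09 (adjusted p = 0.0728, edgeR).

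The high-fat days were also compared with each other, which leaves the chow libraries out of the contrast. From day 2 to day 4, 1 of 38 genes passed (background 2.4%, 2.14% upward), Atp6v1b2, with a log2 change of 0.42 ± 0.10 (adjusted p = 0.0453, edgeR). It was kept in 2 of the 8 fits that left out 1 library. The groups did not overlap for 7 genes, all higher on day 4 (background 4.07%), and the log2 change was positive for 29 of 38, with a median of 0.20 against -0.01 for all tested genes. From day 4 to day 6, 0 of 38 genes passed by edgeR, as for all tested genes (0%). Groups did not overlap for 2 higher genes (background 3.6%) and 3 lower ones (background 3.07%). At an unadjusted p under 0.05 there were 9 genes (23.7%, against 16.3% of all tested genes). DESeq2 called 0 members and 0.347% of all genes, limma-voom 0 members and 0% of all genes, and limma-voom with quality weights 3 members and 13.4% of all genes.

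From day 4 to day 14, 6 of 38 genes passed (15.8%, background 9.36%), 3 upward (background 4.58%) and 3 downward (background 4.78%). Groups did not overlap for 3 higher genes (background 7.91%) and 4 lower ones (background 6.36%). Cd63 rose by 0.58 ± 0.17 (adjusted p = 0.0385, edgeR), to 141, 165, 130 and 144 CPM, all above the day 4 libraries. Gaa rose by 0.57 ± 0.15 (adjusted p = 0.0334, edgeR), to 148, 180, 109 and 107 CPM. Ctsf rose by 0.67 ± 0.21 (adjusted p = 0.0491, edgeR), to 63.7, 68.9, 47.1 and 39.0 CPM, where replicate 4 lay inside the day 4 range. Gaa and Ctsf were uneven on day 14, high in replicates 1 and 2 and lower in 3 and 4.

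The other 3 fell from day 4 to day 14. Atp6v1b2 changed by -0.47 ± 0.10 (adjusted p = 0.0268, edgeR), to 128, 137, 164 and 137 CPM, and Atp6v1a by -0.43 ± 0.11 (adjusted p = 0.031, edgeR), to 93.6, 105, 130 and 121 CPM. Lipa, the acid lipase that frees cholesterol and fatty acids from esters, changed by -0.33 ± 0.08 (adjusted p = 0.0292, edgeR), from 111, 96.0, 90.6 and 79.6 CPM to 73.8, 78.1, 75.4 and 72.8 CPM. For these 3 genes the groups did not overlap. For all 6 V-ATPase subunits the log2 change from day 4 to day 14 was negative, under TMM, DESeq2 size factors and library size alike, with a median of -0.30 under TMM. Each of the 6 calls was lost without day 4 replicate 4, as the count fell to 0, and 0 was also reached without day 4 replicate 2 or 3 or day 14 replicate 1 or 2.

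For part of the list, the level in a library varied with the macrophage markers in it. Over the 20 libraries, 29 of the 38 genes had a positive correlation with the summed CPM of the 18 macrophage markers on a log2 scale (76.3%, against 52% of the 15236 tested genes that are not such markers). Adjusted over the 38 relations, both Pearson's r and Spearman's rho passed for 13 positive relations and 1 negative one. Pearson's r was at least 0.539, the lowest among those 13, for 15 of 38 members (39.5%) and for 8.87% of the same 15236 genes, given as a description with no test. That limit was set by the members themselves. They were also read more deeply, with a median of 121 CPM against 18.3 CPM for all tested genes, and the part of depth in these shares was not tested. The strongest was Man2b1 with r = 0.876 and rho = 0.871 (permutation p = 1e-05 for each, the smallest possible; adjusted 0.00019 and 0.000127). Ctsh followed with r = 0.836 and rho = 0.872, Lgmn with 0.799 and 0.818, Hexa with 0.778 and 0.756, Ctsa with 0.743 and 0.765 and Ctss with 0.705 and 0.699. Over these 6 genes, raw permutation p-values reached 0.00053 for r and 0.00074 for rho at most, and adjusted ones 0.00336 and 0.00402. As deviations from the group means, r for the first 3 was 0.887, 0.852 and 0.864. Without day 2 replicate 1 and day 4 replicate 2, the values farthest from the median, r was 0.857, 0.797 and 0.695. The negative relation was that of Atp6v1h, with r = -0.673 and rho = -0.732 (adjusted 0.00586 and 0.00285).

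Of the 6 members that fell on day 4, Ctsf (r = 0.62), Gaa (0.571) and Neu1 (0.539) were among the 13 positive relations. Of the 7 that rose, 6 passed for neither measure. Pearson's r was -0.03 for Ctsd, 0.17 for Ctsb, -0.20 for Smpd1, -0.32 for Atp6v0d1, -0.33 for Atp6v1a and -0.20 for Atp6v1b2, with adjusted p from 0.228 to 0.891 by permutation. Ctsk, with r = 0.514 and rho = 0.478, passed for r only (adjusted 0.0433 and 0.0749), as did Ctsl, Ppt1 and Asah1. All values compared here share library depth and scaling, and the relations are across mixed tissue, so they do not assign a transcript to a cell type.

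**Figure D4:**
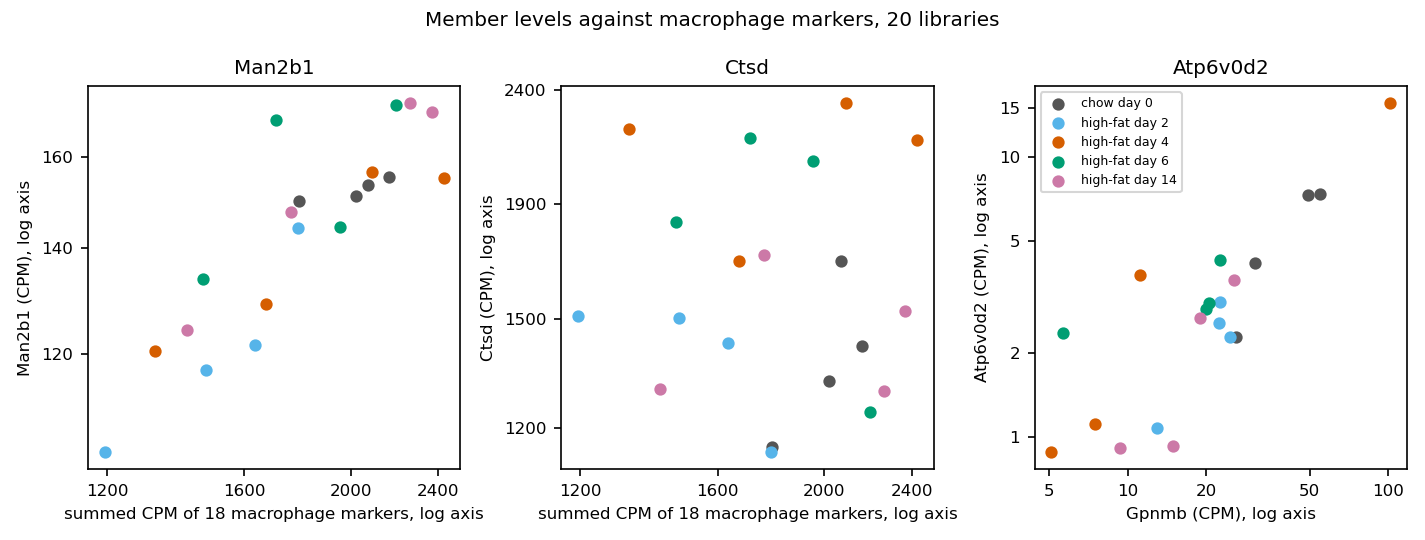
CPM of Man2b1 and Ctsd against the summed CPM of 18 macrophage markers, and CPM of Atp6v0d2 against that of Gpnmb, all on log axes; each point is 1 of the 20 libraries, coloured by group. Man2b1 climbs with the markers (r = 0.876), Ctsd does not (r = -0.03), and day 4 replicate 1 is the far point at top right for Atp6v0d2.

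Other genes of the pathway were read by role on day 4, against the background of 18% upward and 17.3% downward. Among 33 tested hydrolases outside the 38 genes, 1 rose and 11 fell (median log2 change -0.21). The sulfatase Arsg changed by -0.94 ± 0.18 (adjusted p = 0.0015, edgeR), iduronate sulfatase Ids by -0.51 ± 0.10 (adjusted p = 0.00198) and the sialic acid esterase Siae by -0.45 ± 0.12 (adjusted p = 0.00741). The 11 became 9 without both doubted libraries and 5 without day 4 replicate 4. Of 16 further V-ATPase subunits, 5 rose and 1 fell (median 0.17), with 2 up and 3 down when scaled by library size only. The V0 subunits Atp6v0a1 and Atp6v0a2 changed by 0.73 ± 0.14 and 0.53 ± 0.10 (adjusted p of 0.00172 and 0.00178, edgeR) and Atp6v0b by 0.35 ± 0.10 (adjusted p = 0.0118). The one that fell was Atp6v0a4, with a log2 change of -3.335 ± 0.82 (adjusted p = 0.00548, edgeR), from an uneven 7.75 ± 7.29 CPM in chow (SD, n = 4).

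Of 23 further lysosomal membrane proteins, 5 rose and 4 fell on day 4, but 3 rose and 9 fell under library size only. The peptide transporter Abcb9 changed by 1.18 ± 0.17 (adjusted p = 0.000669, edgeR), the calcium-releasing channel Tpcn2 by 0.74 ± 0.22 (adjusted p = 0.0136), the transporter Abca2 by -0.54 ± 0.13 (adjusted p = 0.00475) and the arginine sensor Slc38a9 by -0.33 ± 0.09 (adjusted p = 0.0118). The counts for membrane proteins include Cd68, which is also one of the macrophage markers. Of 12 sorting receptors and enzyme modifiers, 2 rose and 1 fell. Gnptab, the enzyme that starts the mannose 6-phosphate tag on hydrolases, changed by 0.69 ± 0.16 (adjusted p = 0.00355, edgeR), while the sorting receptor Sort1 changed by -0.44 ± 0.14 (adjusted p = 0.019) and the adaptor Ap1b1 by 0.20 ± 0.07 (adjusted p = 0.0479).

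Of 18 genes for TFEB relatives and nutrient sensing at the lysosome, 5 rose and 4 fell on day 4. Tfe3, the relative of Tfeb, changed by 0.35 ± 0.08 (adjusted p = 0.00273, edgeR), from 52.7 ± 3.78 to 67.3 ± 3.67 CPM (SD, n = 4). The Ragulator scaffold Lamtor1 changed by 0.71 ± 0.15 (adjusted p = 0.0028), the Rag GTPase Rraga by 0.36 ± 0.09 (adjusted p = 0.00443) and folliculin, Flcn, by -0.51 ± 0.12 (adjusted p = 0.00402).

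Several members share exon bases with another gene in GENCODE M21. Ctsb shares 774 bases with Fdft1 and Ppt1 129 with Cap1, both on the opposite strand, and Ctsa shares 495 with Pltp. Cap1 had 58343 reads over all libraries against 27379 for Ppt1, and Pltp had 38412 against 49025 for Ctsa. Ctsd shares 808 bases with Gm49369 on its own strand. The longest overlap is that of Ctsl, which shares 1742 bases with the antisense gene Gm47123, and 395 with the pseudogene Gm49230 on its own strand. Glb1 shares 165 bases with Tmppe on its own strand, and Tmppe had 7589 reads against 12745 for Glb1. Gm49369, Gm47123 and Gm49230 have no row in the deposited counts, so no reads were given to them there. Whether counting used the strand is not given in the sources used here. Reads in the stretches shared with the other genes thus cannot be told apart.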

How the data were processed

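RNA was extracted with a column kit from whole epididymal fat of 20 samples and sequenced from Illumina TruSeq libraries, per the labels' protocols. The authors deposited 1 table of raw read counts per gene, not normalized. R 3.0, limma, featureCounts, STAR and CASAVA are listed as tools, per the submitters' processing notes, without a role for each; genome build, annotation and strand setting are not given in the sources used here.

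Symbols were matched for 37607 of 39179 identifiers. Genes with enough reads were kept with filterByExpr in edgeR 4.0.16 (minimum count 10, minimum total 15), which left 15254 genes holding at least 99.51% of each library's counts. Libraries were scaled by TMM and fitted by group in 1 robust quasi-likelihood model over all 20 libraries (R 4.3.3, 15 residual degrees of freedom before moderation), with Benjamini-Hochberg adjustment over all tested genes and a threshold of 0.05. The standard error was the size of the log2 change divided by the square root of F. The fit was tested on simulated data with 200 genes changed by known folds. Log values for correlations used log2(CPM + 0.5), with permutation tests and 38 or 8 relations per family.

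All 38 lysosome genes are named. Of each list of other lysosome genes, up to 4 with the smallest p on day 4 among those that passed are named, except 1 gene that is not reported here. Markers of cell types are named where they describe a library, were set against Atp6v0d2 or also stand in a lysosome list, and Muc16 was not used. The members and lists were chosen with earlier results of these data known. The correlations and their shares over all genes, the counts of highest and lowest group and the setting without both doubted libraries were chosen after seeing the data. Alternatives were DESeq2 1.42.0 and its size factors, limma 3.58.1 (voom, with and without quality weights), library size only, no filter, a stricter filter, a threshold of 0.01, a replicate block, only the groups compared, and each library left out in turn. Libraries of a group were distinct. Separate animals are not stated, so the p-values of group tests set a difference against the spread between these samples. The permutations shuffled all 20 libraries regardless of group, so differences between groups enter those p-values too.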

Additional observations from a re-analysis of the deposited data

Results flagged for a closer look

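In groups of 4 libraries, 8 of the 190 combinations of member and group had 1 library far from the other 3, and chance gives about 1 in 20. Ctsz had a high replicate 2 in 3 groups: 178 CPM in chow (the others 128.7 to 133.8), 132.3 CPM on day 2 (89.02 to 94.58) and 169.6 CPM on day 6 (124.1 to 131). Gaa had a high replicate 2 on day 2, at 118.7 CPM against 85.25 to 89.13, and a high replicate 3 on day 4, at 103.9 CPM against 87.24 to 88.05. Lipa was high in day 6 replicate 4, at 88.94 CPM against 80.93 to 81.92, and Mcoln1 in day 2 replicate 3, at 43.8 CPM against 39.93 to 40.4. Ctsk was low in day 2 replicate 1, the shallowest library, at 12.95 CPM against 17.89 to 18.85.

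The change from chow differed between days for 6 members by the direct edgeR test of day 14 against day 4. The log2 difference was 0.67 for Ctsf, 0.57 for Gaa and 0.58 for Cd63, which were higher on day 14. It was -0.33 for Lipa, -0.43 for Atp6v1a and -0.47 for Atp6v1b2, which were lower. Between day 4 and day 2, Atp6v1b2 differed by 0.42.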

How the results depend on the processing

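Counts are of members past the threshold by edgeR unless another tool is named. Apart from day 6 against day 4, the share of all tested genes under each setting is not given in this section. The counts are thus not set against a background, and a higher or lower count may follow the setting for all genes alike. On day 2 against chow (1 gene), counts were 7 with library size only, 0 without a filter, 5 with DESeq2, 0 with limma-voom and 5 with its quality weights. On day 4 (13 genes), 5 passed at 0.01. On day 6 (2 genes), 1 passed with library size only or without a filter, and 4 with DESeq2. On day 14 (1 gene), 0 passed with library size only or without a filter. Day 4 against day 2 (1 gene) gave 0 with DESeq2 size factors, library size only, no filter, the stricter filter and limma-voom, 7 with DESeq2 and 16 with quality weights. Day 6 against day 4 (0 genes) gave 3 with quality weights, which called 13.4% of all genes. Day 14 against day 4 (6 genes) gave 1 without a filter, 10 with quality weights and 3 with only the groups compared. The test of any difference (15 genes) gave 7 without a filter and 2 at 0.01. At 0.01, and with only the groups compared, 0 passed on days 2, 6 and 14 and on day 4 against day 2, and at 0.01 also 0 on day 14 against day 4. Without both doubted libraries, counts were 0 on days 2, 6 and 14 and on day 4 against day 2, 8 on day 4 and 1 for any difference.

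Leaving out 1 library gave 0 to 8 genes on day 2, 8 to 14 on day 4, 0 to 5 on day 6, 0 to 1 on day 14, 0 to 8 for day 4 against day 2, 0 to 1 for day 6 against day 4, 0 to 7 for day 14 against day 4 and 3 to 16 for any difference. Atp6v0d2 on day 4 ran from -1.52 without day 4 replicate 1, where it passed, to 0.47. Its value was also negative, without passing, at -0.15 without chow replicate 3, -0.05 with library size only, -0.23 with a replicate block, -0.33 with limma-voom and -0.89 with quality weights. The cause of these shifts was not tested.

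With a replicate block, 6 genes passed on day 2 and 4 on day 4 against day 2. As deviations from group means, same-numbered libraries of different groups correlated from -0.186 to 0.516, 12 of 40 pairs above 0.1. Their median was 0.0376, against -0.0103 for libraries with other numbers, and 10 of 20 libraries correlated best with their own number. Whether replicate numbers mark a shared batch or a pairing was not tested. Depth limited Atp6v0d2 and Gla, at 2 and 18 reads in their lowest libraries.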
